A study of Mus musculus with 73 samples.

Results

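Epiblast from mouse embryos that lack Eed was compared with epiblast from embryos that lack Rnf2. The comparison rests on every epiblast library labelled with either disruption, 9 for Eed and 6 for Rnf2, which together are 15 of the 73 samples of the series. 7 wild-type BDF1xCAST epiblast libraries gave the reference level. Each library came from the epiblast of a single embryo dissected 6.5 days after fertilisation. All 22 embryos had a BDF1 mother, which is a hybrid of laboratory strains, and a CAST father of a wild-derived strain, and all came from sperm injection into the oocyte. The disrupted embryos also received Cas9 mRNA with several guide RNAs against different exons of Eed or of Rnf2 at the zygote stage. Each of them is therefore a separate editing event, and the edits of single embryos are not given in the sources used here. By label the Eed group held 5 male and 4 female embryos, the Rnf2 group 4 and 2, and the wild type 4 and 3. The embryos were carried by CD-1 foster females, and whether wild-type embryos had a mock injection was not given in the sources used here. The 2 disruptions stand for loss of the 2 Polycomb complexes.

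Polycomb repression is the work of 2 enzyme complexes that keep developmental genes silent. PRC2, which needs its subunit EED, places the trimethyl mark on histone H3, and PRC1, whose main catalytic subunit is RING1B (the product of Rnf2), adds ubiquitin to histone H2A. Canonical PRC1 binds the mark left by PRC2 through its CBX subunits, while variant PRC1 complexes, among them the one with PCGF6, MGA, MAX and E2F6, reach DNA without that mark. In the early embryo, Polycomb targets include the Hox clusters and many factors that start differentiation, and variant PRC1 is known for holding germline genes silent.

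The measurement was the number of RNA-seq reads over polymorphisms that tell BDF1 from CAST, summed over each of 29557 autosomal genes. Each library was made from a small number of cells with a full-length cDNA kit. Levels are given as CPM, the usual count scaled to the library total. They compare libraries within a gene and not genes with each other, because genes differ in how many polymorphisms they carry. The Rnf2 libraries held 5549733 to 17653087 such reads, the Eed libraries 1421066 to 3500256 and the wild type 1311863 to 3028267, so depth went with the group, and 1 read was worth 0.762 CPM in the shallowest library and 0.0566 CPM in the deepest. The summed level of 8 epiblast markers was 3410 to 5304 CPM in the Eed libraries, 1900 to 4227 CPM in the Rnf2 libraries and 3162 to 5628 CPM in the wild type. Dnmt3b and Fgf5 made up most of it, while Pou5f1, a defining marker of epiblast, had at most 1.61 CPM in the wild type, 0.504 to 32.3 CPM in Eed and 4.08 to 4.97 CPM in Rnf2. Wild-type embryo 8 stood apart: it had the fewest reads yet the most genes with a read of its group (20567, against at most 15118), its 8 visceral endoderm markers summed to 458 CPM against a wild-type median of 8.59 CPM, and its Eed level was the lowest of its group. Without it, 3969 genes in Eed and 3827 in Rnf2 were called against the wild type, in place of the 3548 and 3055 given below. The extraembryonic marker Elf5 was above 10 CPM in Rnf2 embryos 1, 2 and 8 and in Eed embryo 8. In tissue pieces of this kind, a change in the share of a cell type and a change in RNA per cell cannot be told apart.

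Eed mRNA separated the knockouts completely. It was 2.81, 7.71 and 19.8 CPM (lowest, median and highest) in the Eed libraries, 63.1, 141 and 161 CPM in the Rnf2 libraries and 38.1, 174 and 205 CPM in the wild type. The log2 difference between the Eed and Rnf2 groups was -3.87 ± 0.30 (SE, edgeR quasi-likelihood test, adjusted p = 6.1e-08). Rnf2 mRNA did not separate them. It was 27, 31.8 and 37.5 CPM in the Eed libraries, 19.3, 26.6 and 33.4 CPM in the Rnf2 libraries and 32.8, 45.6 and 56.6 CPM in the wild type. Rnf2 shares its locus with the predicted gene Gm36527. The knockouts overlapped, and the log2 difference of 0.18 ± 0.17 between the knockouts did not pass the test (adjusted p = 0.573). Against the wild type, Rnf2 mRNA fell in both: by 0.69 on the log2 scale in the Eed libraries (adjusted p = 0.0012) and by 0.80 in the Rnf2 libraries (adjusted p = 0.0074). Rnf2 embryos 3 and 5, at 32.9 and 33.4 CPM, were not below the lowest wild-type library.

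The parental origin of the Rnf2 reads did differ in range. Over all autosomal reads, the maternal share was 56.8 to 57.8% in the Eed libraries, 57.3 to 58.5% in the Rnf2 libraries and 57.5 to 58.6% in the wild type. Maternal shares here and below are therefore read against that level and not against 50%. In the Eed libraries 51.6 to 69.6% of Rnf2 reads were maternal, and in the wild type 36.9 to 66.3%. In the Rnf2 libraries the share ran from 5.66% in embryo 5 and 9.04% in embryo 2 through 49.5, 61.1 and 69.4% to 93.9% in embryo 1. The 95% Wilson intervals, which cover counting error only, were 3.46 to 9.13% for embryo 5 (265 reads), 5.72 to 14% for embryo 2 (188 reads) and 91.0 to 96.0% for embryo 1 (362 reads). Thus 3 of the 6 Rnf2 libraries read the gene almost entirely from a single allele, and the side varied between embryos. No difference in the group mean was called (adjusted p = 0.95). The results below are given for all 6 Rnf2 libraries. Among the genes named by rule, the calls between the knockouts that were lost without embryos 3 and 5 were those of Tal1, Barx1, Trh, Lefty1, Mesp2, Mtf2, Cbx8, Rps27l, Ncapd3, Npy1r and Ddc in level and of Eed, Cep128 and Snrpd3 in maternal share. Of the calls given for Rnf2 relative to the wild type, those of Brdt, Fgf15, Foxa2, Peg3, Plagl1 and Sesn2 in level and of Peg3 and Sfmbt2 in maternal share were lost.

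**Figure D1:**
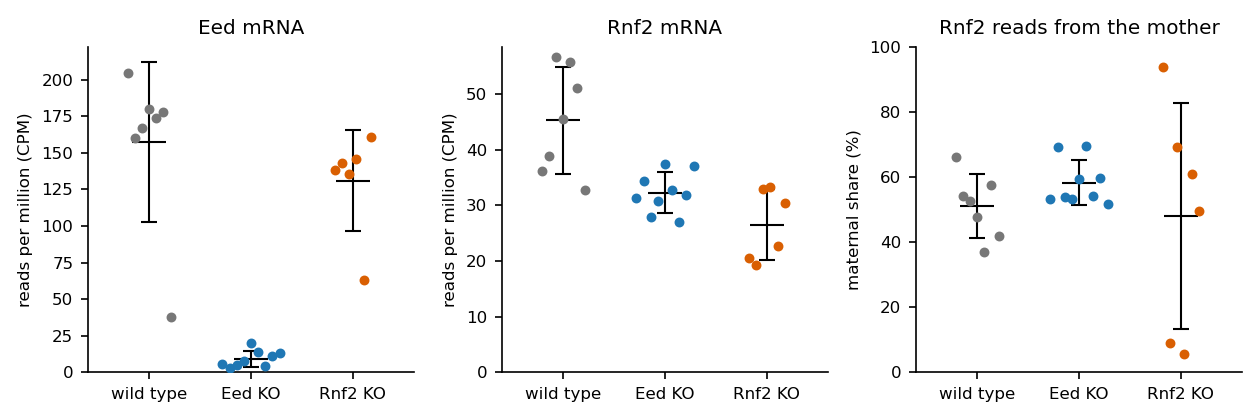
Level of Eed and Rnf2 mRNA (CPM) and maternal share of Rnf2 reads (%) in each library, with 1 point per embryo and the group mean ± SD. The 9 Eed libraries lie at or below 19.8 CPM of Eed, whereas Rnf2 mRNA overlaps between the knockouts and its maternal share spreads from 5.66 to 93.9% in the Rnf2 libraries.

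The direct comparison of the knockouts called 407 of 10461 tested genes (3.89%) at an adjusted p under 0.05. Of these, 169 were higher in Eed (1.62% of the genes tested) and 238 were higher in Rnf2 (2.28%). The separate comparisons with the wild type called more: 3548 of 9486 genes (37.4%) for Eed, with 1729 higher (18.2%) and 1819 lower (19.2%), and 3055 of 9792 genes (31.2%) for Rnf2, with 1797 higher (18.4%) and 1258 lower (12.8%). Which side held more genes in Eed depended on the processing: 1817 were higher and 1632 lower with DESeq2's size factors, and 2188 and 1781 without wild-type embryo 8. At an unadjusted p under 0.05, 45.7% of the genes tested passed for Eed and 41.6% for Rnf2. Both used the same 7 wild-type libraries, so their values are given side by side and their likeness is not measured. The count of the direct comparison depended on single libraries: it was 228 without Rnf2 embryo 3, 244 without Rnf2 embryo 8, 265 without Eed embryo 1 and 659 without Eed embryo 8. Without Rnf2 embryos 3 and 5 together it was 140, of which 37 were higher in Eed and 103 in Rnf2.

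Of the 14 gene lists, the germline list had the most genes called between the knockouts. The lists were chosen with earlier results of these data known, and no list was tested as a set. Of 62 listed germline and meiosis genes, 58 were autosomal genes in the table and 30 had enough reads to be tested. By edgeR, 16 of the 30 were higher in Rnf2 and 0 were higher in Eed, where 2.28% and 1.62% of all genes tested were. The median log2 difference over the 30 was -1.57 (Eed minus Rnf2), against 0.03 over all genes tested. At an unadjusted p under 0.05, 26 were higher in Rnf2 and 1 in Eed, where 19.7% of all genes tested passed, and DESeq2 called 20 and 0 at an adjusted p under 0.05. A gene read only in the Rnf2 libraries could pass the filter, so the 30 are not a neutral sample of the list. Without the filter, 25 listed genes were higher in Rnf2 and 0 in Eed. The count was 12 with all libraries thinned to the same depth, 12 without Rnf2 embryos 3 and 5, and 18 without the 4 libraries with Elf5 above 10 CPM. Relative to the wild type, 13 of 22 tested germline genes were higher and 3 lower in Eed, the latter being Sycp3, Syce2 and Hormad2. In Rnf2, 25 of 28 were higher and 0 lower (edgeR and DESeq2, also at an unadjusted p under 0.05). Among all genes tested, edgeR called 18.2% higher in Eed and 18.4% higher in Rnf2.

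Slc25a31, the ADP/ATP carrier of male germ cells, was 26.6, 30.6 and 58.1 CPM in the Eed libraries, 204, 266 and 377 CPM in the Rnf2 libraries and 2.77, 6.53 and 17.5 CPM in the wild type. Each Rnf2 library was above every Eed library, and each Eed library was above every wild-type library. The Rnf2 mean was 7.65 times the Eed mean (log2 difference -3.04 ± 0.21, adjusted p = 1.27e-08). Ddx4, the Vasa RNA helicase that marks germ cells, had the same order. Its levels were 17.1, 26.5 and 51.5 CPM in Eed, 82.3, 142 and 218 CPM in Rnf2 and 3.79, 8.31 and 16.8 CPM in the wild type. The Rnf2 mean was 4.83 times the Eed mean (log2 difference -2.37 ± 0.22, adjusted p = 9.73e-07). Sycp1, the transverse filament of the synaptonemal complex that joins paired chromosomes in meiosis, was 10.1, 25.1 and 40.1 CPM in Eed, 40.8, 67.4 and 148 CPM in Rnf2 and 0, 0.404 and 2.53 CPM in the wild type. It rose in each knockout against the wild type and was 3.28 times higher in the Rnf2 mean than in the Eed mean (log2 difference -1.80 ± 0.29, adjusted p = 0.00125). Sycp1 has a pseudogene copy, so its reads may be shared.

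In a further set the Eed libraries had few reads. Tex101, a surface protein of germ cells, was 0, 1.73 and 3.6 CPM in Eed, 17.5, 34.8 and 86.4 CPM in Rnf2 and 0 to 0.726 CPM in the wild type. It had 37 reads over the 9 Eed libraries, 2080 over the 6 Rnf2 libraries and 2 over the 7 wild-type libraries. The difference between the knockouts was the largest among the listed genes (log2 -4.77 ± 0.49, adjusted p = 4.11e-06). Piwil2, which binds the small RNAs that silence transposons in germ cells, was 0, 1.51 and 5.14 CPM in Eed, 7.02, 10.2 and 21.6 CPM in Rnf2 and 0, 0.363 and 3.81 CPM in the wild type (log2 difference -2.91 ± 0.48, adjusted p = 0.0015). Brdt, a bromodomain protein of the testis, was 0, 0.704 and 2.52 CPM in Eed and 3.42, 9.18 and 13.8 CPM in Rnf2 (log2 difference -3.0 ± 0.46, adjusted p = 0.00069). Here the wild type reached 10.7 CPM in embryo 8 and only 2 of the 6 Rnf2 libraries were above it. Brdt overlaps a predicted gene whose reads it may share.

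Syce1, of the central element of the synaptonemal complex, and Fkbp6, a chaperone of the meiotic small RNA pathway, lay between these patterns. Syce1 was 4.57, 14.5 and 25.1 CPM in Eed, 80.7, 113 and 127 CPM in Rnf2 and 0, 5.54 and 9.69 CPM in the wild type. Its log2 difference between the knockouts was -2.94 ± 0.27 (adjusted p = 8.28e-07), and 7 of the 9 Eed libraries exceeded the highest wild-type library. Fkbp6 was 11.1, 35.2 and 50.8 CPM in Eed, 102, 200 and 337 CPM in Rnf2 and 5.03, 10.9 and 21.3 CPM in the wild type (log2 difference -2.80 ± 0.31, adjusted p = 1.28e-05). Tex12, another central element gene outside the list that overlaps Il18, was 0.571, 1.73 and 4.23 CPM in Eed and 7.31, 10.5 and 19.3 CPM in Rnf2 (log2 difference -2.55 ± 0.35, adjusted p = 0.00023).

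The other called members were Sohlh2 and Dmrt1, transcription factors, Hormad1 and Sycp2, of the meiotic chromosome axis, Boll, an RNA-binding protein, and Stk31, Tdrd1 and Rnf17, which carry Tudor domains, and in each of these the knockouts overlapped while 4 or 5 of the 6 Rnf2 libraries exceeded all Eed libraries. Dmrt1, which acts in the gonad, was 8.88, 11.6 and 26.9 CPM in Eed, 24.6, 34.3 and 80.2 CPM in Rnf2 and 0, 1.26 and 6.1 CPM in the wild type (log2 difference -1.60 ± 0.28, adjusted p = 0.00225). The 16 called genes had log2 differences of -1.10 to -4.77. All 16 were also called higher in Rnf2 than in the wild type. In Eed against the wild type, 6 of the 16 were called, 3 were tested and not called, and 7 had too few reads to be tested. The level of the listed genes summed per library was 599 to 1024 CPM in Eed, 1315 to 2581 CPM in Rnf2 and 444 to 652 CPM in the wild type. Rnf2 embryos 3 and 5, the libraries with the most Rnf2 mRNA, stood at 2150 and 2002 CPM.

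**Figure D2:**
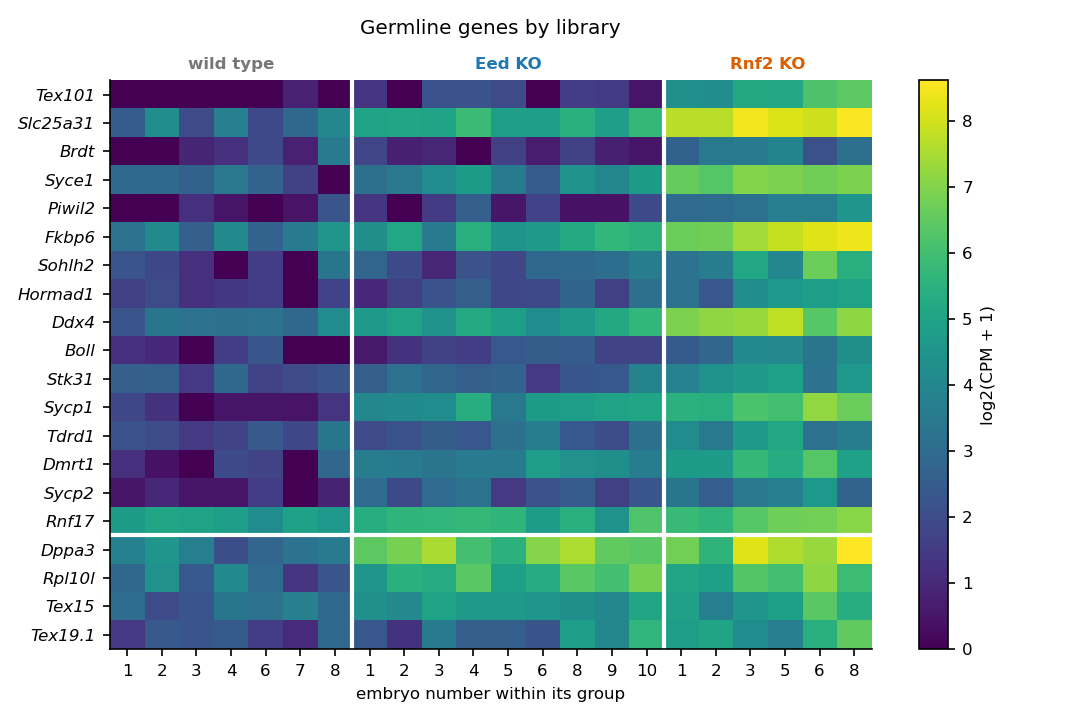
Level of the 16 germline genes called between the knockouts (above the white line) and of 4 of the 7 germline genes called in both knockouts against the wild type but not between them (below it), as log2(CPM + 1), with 1 column per library. The upper block is bright in the 6 Rnf2 columns, whereas the lower block is raised in both knockouts.

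7 germline genes rose in both knockouts against the wild type with no difference called between them, and the 4 named by rule are described here. The others were Tdrd5, Dmc1 and Zcwpw1. Dppa3, the maternal factor Stella that also marks early germ cells, was 45.1, 89.5 and 187 CPM in Eed, 47.1, 173 and 390 CPM in Rnf2 and 3.23, 10.7 and 21.5 CPM in the wild type. Every knockout library was above every wild-type library, and the log2 difference between the knockouts was -0.96 ± 0.35 (adjusted p = 0.13). Tex15, which acts in meiotic repair and transposon silencing, rose by 1.43 ± 0.27 in Eed and 2.28 ± 0.40 in Rnf2 on the log2 scale, and the direct difference was -0.77 ± 0.30 (adjusted p = 0.146). Tex19.1 rose by 1.85 ± 0.60 and 3.47 ± 0.49, and the direct difference was -1.53 ± 0.53 (adjusted p = 0.11). Rpl10l, a retrocopy of the ribosomal gene Rpl10 whose reads are uncertain, rose by 2.54 ± 0.44 and 2.91 ± 0.48, and the direct difference was -0.30 ± 0.35 (adjusted p = 0.684). For Dppa3, Tex15 and Tex19.1 the estimates leave room for a difference in the same direction as in the called genes.

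Primordial germ cell markers were read in the same libraries. The summed level of 5 of 5 listed markers was 55.2 to 210 CPM in Eed, 67.7 to 423 CPM in Rnf2 and 6.06 to 32.8 CPM in the wild type. Most of it came from Dppa3, which also belongs to the germline list, so the sum is not independent of that list. The defining markers Prdm14 and Nanos3 had a median of 0 CPM in Eed and in the wild type and of 0.236 and 0.126 CPM in Rnf2, and they reached at most 0.308 and 0.453 CPM in any Rnf2 library. Prdm1 had a median of 5.65 CPM in Eed, 5.77 CPM in Rnf2 and 0.807 CPM in the wild type.

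The promoters of the germline genes were read from RefSeq (build GRCm38.p6) for a sequence description. The window was 250 bases before to 50 after each annotated start, and the motif was CACGTG, the E-box that dimers of MAX with partners such as MGA recognise, which reads the same on both strands. Of the 16 germline genes called higher in Rnf2, 13 had an entry and 9 of these (69.2%) held CACGTG. Of the 14 tested and not called, 11 had an entry and 2 (18.2%) held it. The share was 11.9% of the tested genes with an entry, 22.7% of the genes called higher in Rnf2 (39 of 172), 11.5% of those called higher in Eed (14 of 122) and 8.11% of all autosomal genes in the promoter table. The genes called higher in Rnf2 include the called germline genes. A gene with several annotated starts counted if any of them held the motif. The 28 listed germline genes with too few reads to be tested are in neither germline group, and their share is not given here. Some germline genes outside the 16 held CACGTG, such as Mael and Piwil1, and others did not, such as Dazl and Stra8. The motif was not confined to germline genes: of the 10 Hox genes tested between the knockouts, 8 had an entry and 4 (50%) held CACGTG. A second motif, GCGGGA (on the other strand TCCCGC), which is part of the E2F consensus and was added after values were seen, was in 38.5% of the first group, 63.6% of the second and 40.7% of the tested genes. A match describes letters and is not a bound site. The 250 bases before the start are shown for 4 called genes with the E-box and 2 without it, from 5′ to 3′ toward the gene, with either motif in capitals.
Slc25a31 (chr3:40708621-40708870, forward strand): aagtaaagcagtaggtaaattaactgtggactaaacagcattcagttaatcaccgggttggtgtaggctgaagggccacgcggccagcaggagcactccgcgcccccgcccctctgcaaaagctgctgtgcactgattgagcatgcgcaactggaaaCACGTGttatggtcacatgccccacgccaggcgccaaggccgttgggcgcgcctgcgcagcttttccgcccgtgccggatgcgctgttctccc
Ddx4 (chr13:112652311-112652560, reverse strand): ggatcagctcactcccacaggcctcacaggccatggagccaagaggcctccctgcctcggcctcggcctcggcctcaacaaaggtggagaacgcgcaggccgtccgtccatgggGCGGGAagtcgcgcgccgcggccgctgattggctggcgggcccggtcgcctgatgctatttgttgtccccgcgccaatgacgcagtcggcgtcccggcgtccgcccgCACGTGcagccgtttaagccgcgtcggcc
Sycp1 (chr3:102936101-102936350, reverse strand): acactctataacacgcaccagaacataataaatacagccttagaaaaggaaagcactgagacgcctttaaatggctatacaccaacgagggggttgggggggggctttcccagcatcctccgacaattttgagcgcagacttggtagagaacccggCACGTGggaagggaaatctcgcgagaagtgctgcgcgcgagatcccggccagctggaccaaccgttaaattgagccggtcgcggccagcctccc
Fkbp6 (chr5:135350045-135350294, reverse strand): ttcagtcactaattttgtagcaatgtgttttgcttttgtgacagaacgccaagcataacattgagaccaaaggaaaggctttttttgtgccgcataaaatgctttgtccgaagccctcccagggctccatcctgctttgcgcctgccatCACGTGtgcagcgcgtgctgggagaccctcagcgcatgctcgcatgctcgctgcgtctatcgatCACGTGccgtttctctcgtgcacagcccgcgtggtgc
Syce1 (chr7:140787855-140788104, reverse strand): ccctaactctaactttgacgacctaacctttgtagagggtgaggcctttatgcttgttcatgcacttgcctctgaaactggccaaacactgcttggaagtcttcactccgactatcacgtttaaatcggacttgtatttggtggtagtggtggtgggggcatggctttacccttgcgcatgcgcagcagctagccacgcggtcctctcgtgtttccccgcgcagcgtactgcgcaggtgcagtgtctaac
Tex101 (chr7:24672051-24672300, reverse strand): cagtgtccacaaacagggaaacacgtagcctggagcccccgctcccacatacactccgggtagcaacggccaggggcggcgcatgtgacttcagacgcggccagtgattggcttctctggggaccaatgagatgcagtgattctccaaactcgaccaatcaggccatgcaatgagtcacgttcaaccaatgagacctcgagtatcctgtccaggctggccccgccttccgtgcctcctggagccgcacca
The first base of CACGTG lay 93 bases before the start of Slc25a31, 29 before that of Ddx4 and 94 before that of Sycp1. Fkbp6 has 2 annotated starts, and before the one shown the motif occurred 101 and 37 bases upstream. Syce1 and Tex101, which differed as much between the knockouts as the genes above, held none in this window.

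Averaged over the libraries of a group, most germline genes had reads from both parental alleles. Counting germline genes for which 3 or more libraries of a group had 10 reads or more, 38 of 39 in Rnf2, 23 of 26 in Eed and 13 of 17 in the wild type had a mean maternal share between 20 and 80%. The share of all genes in this band is not given here, so it is not shown as a trait of germline genes. A mean does not show both alleles in each embryo, and the genes counted differ between groups with depth. For Ddx4 the maternal share was 56.7% ± 13.5 (SD, n = 9) in Eed and 60.2% ± 5.94 (SD, n = 6) in Rnf2. Fkbp6 differed from this in the wild type, where 10.6% ± 10 (SD, n = 7) of reads were maternal, against 29.8% ± 16.7 in Eed and 35.3% ± 12.4 in Rnf2. Neither change passed the test (adjusted p = 0.0999 and 0.0573), nor did the difference between the knockouts (adjusted p = 0.979).

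Hox genes place cells along the body axis and are classic Polycomb targets. Of 37 Hox and Evx genes in the table, 10 were tested between the knockouts. Where edgeR called 3.89% of all genes tested, it called 1 of the 10, Hoxb7, a homeobox gene of the trunk. At an unadjusted p under 0.05, 0 were higher in Eed and 4 in Rnf2, DESeq2 called 3, and the count ran from 1 to 4 over 24 alternatives and differed from 1 in 17 of them. Hoxb7 was 1.6, 2.02 and 10.3 CPM in Eed, 15.2, 26.1 and 32.9 CPM in Rnf2 and at most 0.363 CPM in the wild type, where 5 of 7 libraries had no read. The Rnf2 mean was 7.06 times the Eed mean with no overlap (log2 difference -2.87 ± 0.35, adjusted p = 5.02e-05). The 9 others had no called difference, and the median over the 10 was -0.76. Hoxd13, the last gene of its cluster, was 11.2, 12.4 and 25.1 CPM in Eed, 11.2, 23.5 and 24.3 CPM in Rnf2 and at most 0.843 CPM in the wild type. Every knockout library was above the wild type, and the direct log2 difference of -0.72 ± 0.20 fell just short of the threshold (adjusted p = 0.0506). Only 3 and 4 Hox genes could be tested against the wild type, and 2 were higher in Eed and 3 in Rnf2. A Hox gene read only in a knockout could pass the filter, so these few are not a neutral sample of the list. Under the alternatives, the count of higher Hox genes ran from 1 to 9 in Eed and from 2 to 15 in Rnf2. Among all genes tested, 18.2% were higher in Eed and 18.4% in Rnf2.

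Among 128 other developmental factors in the table, 26 were tested between the knockouts and 1 was called in each direction. Of all genes tested between the knockouts, 1.62% were higher in Eed and 2.28% in Rnf2. Tal1, a blood and endothelial factor, was 10.1, 13.4 and 20.7 CPM in Eed, 2.56, 6.58 and 9.19 CPM in Rnf2 and 0, 0.807 and 3.05 CPM in the wild type (log2 difference 1.15 ± 0.27, adjusted p = 0.0189). All 9 Eed libraries were above all 6 Rnf2 libraries, but the call was lost in 4 of 24 alternatives, among them the one without Rnf2 embryos 3 and 5. Barx1, a homeobox gene, was 3.52, 6.83 and 16.8 CPM in Eed and 11.2, 16.2 and 21.9 CPM in Rnf2 (log2 difference -1.15 ± 0.31, adjusted p = 0.0381), a call lost in 12 of 24 alternatives. Nkx2-9 and Twist1 rose in both against the wild type, by 3.95 ± 0.56 and 2.09 ± 0.51 in Eed and by 5.09 ± 0.56 and 2.53 ± 0.54 in Rnf2 on the log2 scale. Of the factors tested against the wild type, 7 of 13 were higher and 2 lower in Eed, and 8 of 16 were higher and 1 lower in Rnf2. Among all genes tested, 18.2% were higher in Eed and 18.4% in Rnf2. A factor read only in a knockout could pass the filter, so the tested factors are not a neutral sample of the list. Under the alternatives, the count of higher factors ran from 2 to 24 in Eed and from 3 to 27 in Rnf2.

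The few pluripotency genes called between the knockouts were mostly higher in Rnf2, while the list as a whole was not. Of 33 tested epiblast genes, 5 were higher in Rnf2 and 1 in Eed, where 2.28% and 1.62% of all genes tested were. Over 24 alternatives these counts ran from 3 to 5 and from 0 to 3. The median log2 difference over the list was 0.15 (Eed minus Rnf2), against 0.03 over all genes tested. At an unadjusted p under 0.05 (edgeR), 6 epiblast genes were higher in Rnf2 and 4 in Eed. Dppa4, a chromatin factor of pluripotent cells, was 7.06, 25.9 and 86.6 CPM in Eed, 67.7, 246 and 304 CPM in Rnf2 and 2.77, 6.32 and 11.7 CPM in the wild type (log2 difference -2.50 ± 0.46, adjusted p = 0.00374). Dppa5a, an RNA-binding protein of naive pluripotent cells, was 49.7, 77.8 and 184 CPM in Eed, 73.6, 451 and 990 CPM in Rnf2 and 21.4, 46.5 and 117 CPM in the wild type (log2 difference -2.37 ± 0.45, adjusted p = 0.00469). In both genes 4 of the 6 Rnf2 libraries exceeded every Eed library and the other 2 lay within their range. Epcam, an adhesion molecule, differed little (log2 -0.41 ± 0.11, adjusted p = 0.0362), and Gdf3 is described with the ligands. Zfp42, the naive-state factor Rex1, had means of 9.93 CPM in Eed and 27.4 CPM in Rnf2 (log2 difference -1.57 ± 0.43, adjusted p = 0.0397). Trh, which encodes thyrotropin-releasing hormone and is expressed in epiblast, was 411, 819 and 3495 CPM in Eed, 74.3, 303 and 720 CPM in Rnf2 and 78.5, 161 and 199 CPM in the wild type. It was higher in Eed by 2.02 ± 0.50 on the log2 scale (adjusted p = 0.0255), and this call was lost without Rnf2 embryo 3, 5 or 8.

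Utf1, a chromatin factor of pluripotent cells, rose to a like level in both knockouts, with 353, 461 and 914 CPM in Eed, 372, 519 and 536 CPM in Rnf2 and 42.7, 65.3 and 158 CPM in the wild type. The direct log2 difference was 0.05 ± 0.18 (adjusted p = 0.915). Fzd5, a Wnt receptor, fell in both, by 1.10 ± 0.19 in Eed and by 1.22 ± 0.27 in Rnf2 on the log2 scale, with a direct difference of 0.19 ± 0.27 (adjusted p = 0.761). In all, 8 of 32 tested epiblast genes were higher and 5 lower in Eed than in the wild type, and 11 of 33 were higher and 6 lower in Rnf2. These counts stand beside 37.4% of all genes tested that were called in Eed and 31.2% in Rnf2. Fgf15 was among those higher in both, by 1.74 ± 0.23 in Eed and 1.17 ± 0.37 in Rnf2 on the log2 scale.

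Of 19 tested ligands and antagonists, 2 were higher in Eed and 2 in Rnf2, where 1.62% and 2.28% of all genes tested were. Lefty2, a secreted Nodal inhibitor, was 67.3, 94.3 and 173 CPM in Eed, 19.9, 26.4 and 41.3 CPM in Rnf2 and 0.33, 96.9 and 324 CPM in the wild type. The knockouts did not overlap (log2 difference 1.65 ± 0.22, adjusted p = 0.000121), but the wild type spanned both, and the call was lost when the 3 groups shared a single estimate of spread (adjusted p = 0.171). Lefty1, the related inhibitor, was 28.4, 128 and 300 CPM in Eed, 27.1, 47.8 and 77.4 CPM in Rnf2 and 0.363, 2.52 and 27.4 CPM in the wild type. It rose in both knockouts and was higher in Eed by 1.56 ± 0.34 on the log2 scale (adjusted p = 0.0127), with 8 of 9 Eed libraries above every Rnf2 library. The call was lost without Rnf2 embryos 3 and 5 and, like that of Lefty2, when the 3 groups shared a single estimate of spread.

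Gdf3, a TGF-beta family ligand of pluripotent cells, was 8.57, 31.1 and 65.7 CPM in Eed, 86.1, 155 and 315 CPM in Rnf2 and 0, 2.83 and 3.63 CPM in the wild type. The 3 groups did not overlap (direct log2 difference -2.31 ± 0.33, adjusted p = 0.00038). Bmp4, a ligand made by the extraembryonic ectoderm at this stage, was 0.571, 2.57 and 6.18 CPM in Eed, 3.78, 7.29 and 24.4 CPM in Rnf2 and at most 1.21 CPM in the wild type (log2 difference -1.96 ± 0.44, adjusted p = 0.015). Its highest library, Rnf2 embryo 8, also had the highest Elf5 level, 50 CPM. The call was lost without that library and without the 4 libraries with Elf5 above 10 CPM. Nodal itself rose in both against the wild type, by 1.48 ± 0.29 in Eed and 1.63 ± 0.25 in Rnf2 on the log2 scale, with a direct difference of -0.08 ± 0.24 (adjusted p = 0.884). Fst, the activin-binding protein follistatin, fell in both, by 2.35 ± 0.40 and 2.97 ± 0.56 on the log2 scale, with a direct difference of 0.69 ± 0.44 (adjusted p = 0.405).

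**Figure D3:**
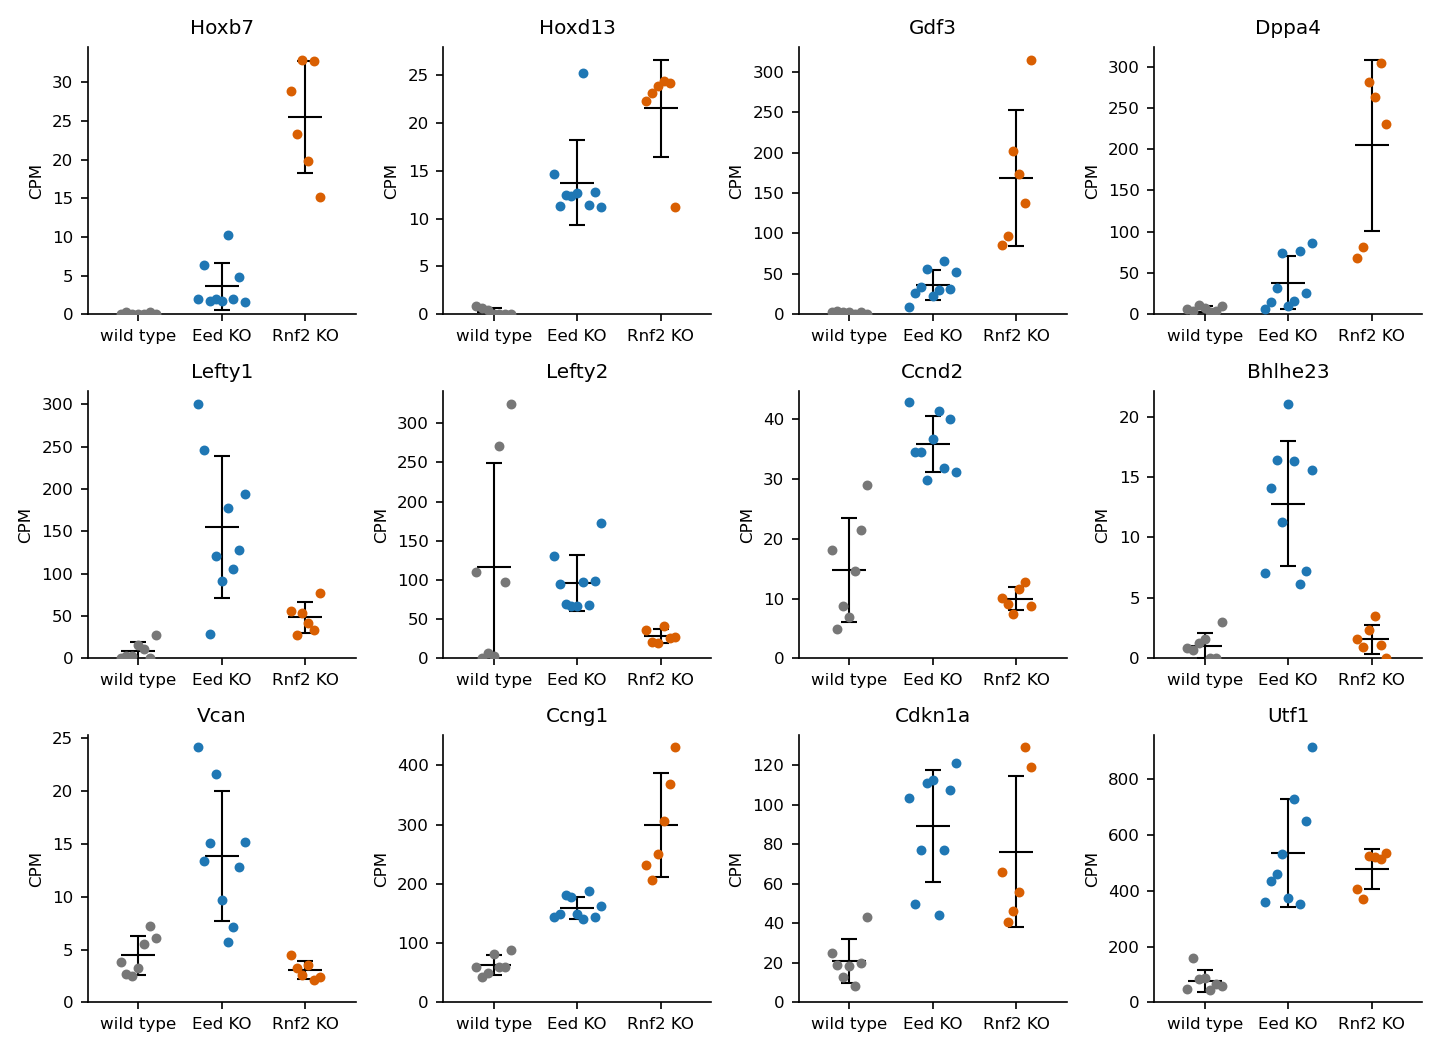
Level of 12 genes in each library (CPM, each panel on its own scale from 0), with 1 point per embryo and the group mean ± SD. Hoxb7, Gdf3 and Ccng1 are higher in every Rnf2 than Eed library, Ccnd2, Bhlhe23, Vcan and Lefty2 are higher in every Eed library, and Hoxd13, Cdkn1a and Utf1 overlap.

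Of 19 tested primitive streak genes, 9 were lower and 1 higher in Eed than in the wild type, and 7 of 20 were lower and 1 higher in Rnf2. Among all genes tested, 19.2% were lower in Eed and 12.8% in Rnf2. The other streak genes did not pass the test, among them Fgf8, a growth factor of the streak, with medians of 55.7 CPM in Eed, 44.3 CPM in Rnf2 and 10.5 CPM in the wild type (adjusted p = 0.0713 and 0.439). Between the knockouts, 2 of 19 were higher in Eed, Lefty2 and Tal1, and 1 in Rnf2, where 1.62% and 2.28% of all genes tested were. Mixl1, a homeobox gene of the streak, was 0.704, 2.22 and 59 CPM in Eed, 0, 1.36 and 10 CPM in Rnf2 and 3.96, 94.8 and 239 CPM in the wild type. It fell by 3.70 ± 0.80 in Eed (adjusted p = 0.00138) and by 5.06 ± 0.95 in Rnf2 (adjusted p = 0.000913) on the log2 scale, and it had too few reads for a test between the knockouts. Eomes, which is needed for mesoderm and endoderm, fell by 1.58 ± 0.37 and 1.65 ± 0.42, with a direct difference of 0.14 ± 0.35 (adjusted p = 0.872). Foxa2, the endoderm factor, fell by 1.65 ± 0.61 in Eed and 3.03 ± 0.86 in Rnf2. Its direct difference of 1.46 ± 0.46 did not pass the test (adjusted p = 0.078). Chrd and Rspo3 also fell in both, and Pdgfra did so with a direct difference of 1.13 ± 0.60 (adjusted p = 0.302). Wild-type streak genes varied widely between embryos, from 40.9 to 1221 CPM for the sum of 7 markers. Mesp2, a mesoderm factor, was the only listed streak gene higher in Rnf2 than in Eed, at 3.78, 6.43 and 10.1 CPM against 0, 0.842 and 3.8 CPM (log2 difference -2.30 ± 0.48, adjusted p = 0.00978), a call lost without Rnf2 embryos 3 and 5.

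Of 17 tested cyclin-dependent kinase inhibitors and p53 targets, 12 were higher and 1 lower than the wild type in Eed, and 12 of 17 were higher and 0 lower in Rnf2 (edgeR and DESeq2, also at an unadjusted p under 0.05). Among all genes tested, edgeR called 18.2% higher in Eed and 18.4% higher in Rnf2. Cdkn1a, the inhibitor p21, was 44.3, 103 and 121 CPM in Eed, 40.8, 61.2 and 129 CPM in Rnf2 and 8.31, 19.2 and 43.5 CPM in the wild type. The direct log2 difference was 0.13 ± 0.27 (adjusted p = 0.835). Trp53inp1 and Ddit4l rose by 1.69 ± 0.29 and 1.44 ± 0.23 in Eed and by 2.56 ± 0.30 and 2.31 ± 0.26 in Rnf2, and their direct differences just missed the threshold (adjusted p = 0.0638 and 0.0612). Sesn2 rose by 1.94 ± 0.43 in Eed and by 1.74 ± 0.53 in Rnf2. Between the knockouts, 0 of 19 tested genes were higher in Eed and 2 were higher in Rnf2, where 1.62% and 2.28% of all genes tested were. These counts were 0 and 4 at an unadjusted p under 0.05, and DESeq2 called 0 and 4. Ccng1, the p53 target cyclin G1, was 140, 150 and 189 CPM in Eed, 207, 278 and 432 CPM in Rnf2 and 42.3, 59.9 and 88.4 CPM in the wild type. The 3 groups did not overlap (direct log2 difference -1.0 ± 0.16, adjusted p = 0.000984). Rps27l, whose reads may be shared with its paralog Rps27, differed by a small margin between the knockouts and was the listed gene called lower in Eed than in the wild type, with a direct log2 difference of -0.57 ± 0.14 (adjusted p = 0.0226). This call was lost without Rnf2 embryo 3 or 8.

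The genes that were highest in Eed relative to Rnf2, with no overlap between the knockouts, came from no single list. Ccnd2, cyclin D2 of the cell cycle entry, was 29.8, 34.6 and 42.9 CPM in Eed, 7.49, 9.63 and 12.8 CPM in Rnf2 and 4.95, 14.6 and 29 CPM in the wild type. The Eed mean was 3.59 times the Rnf2 mean (log2 difference 1.75 ± 0.16, adjusted p = 8.28e-07), and Ccnd2 did not pass the test in Rnf2 against the wild type (-0.56 ± 0.33, adjusted p = 0.213). Bhlhe23, a neural basic helix-loop-helix factor, was 6.18, 14.1 and 21.1 CPM in Eed and 0, 1.33 and 3.53 CPM in Rnf2 (log2 difference 2.91 ± 0.48, adjusted p = 0.0015), and the wild type lay at 0, 0.843 and 3.05 CPM. Vcan, a proteoglycan of the extracellular matrix, was 5.71, 13.4 and 24.2 CPM in Eed, 2.16, 2.93 and 4.48 CPM in Rnf2 and 2.52, 3.79 and 7.26 CPM in the wild type (log2 difference 2.04 ± 0.32, adjusted p = 0.000846). Kif1a, a neuronal kinesin, and Myh10, a non-muscle myosin, were higher in Eed by 1.64 ± 0.26 (adjusted p = 0.000951) and 1.52 ± 0.28 (adjusted p = 0.00375). Both were also higher in Eed than in the wild type, by 1.79 ± 0.31 and 1.11 ± 0.29 on the log2 scale, whereas in Rnf2 neither passed the test against the wild type.

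4 further genes of this kind had low levels or less stable calls. Hist1h1e, a linker histone whose family shares sequence, was higher in Eed by 1.96 ± 0.34 (adjusted p = 0.00227), and the adjusted p was 0.0507 at equal depth. Otop1 and Ncapd3 had log2 differences of 2.72 ± 0.58 and 2.10 ± 0.46 at means near 5 CPM in Eed and near 1 CPM in Rnf2, and each call was lost without the 4 libraries with Elf5 above 10 CPM. Npy1r, a neuropeptide receptor, was higher in Eed by 1.59 ± 0.33 (adjusted p = 0.00855), a call lost without Rnf2 embryos 3 and 5.

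**Figure D4:**
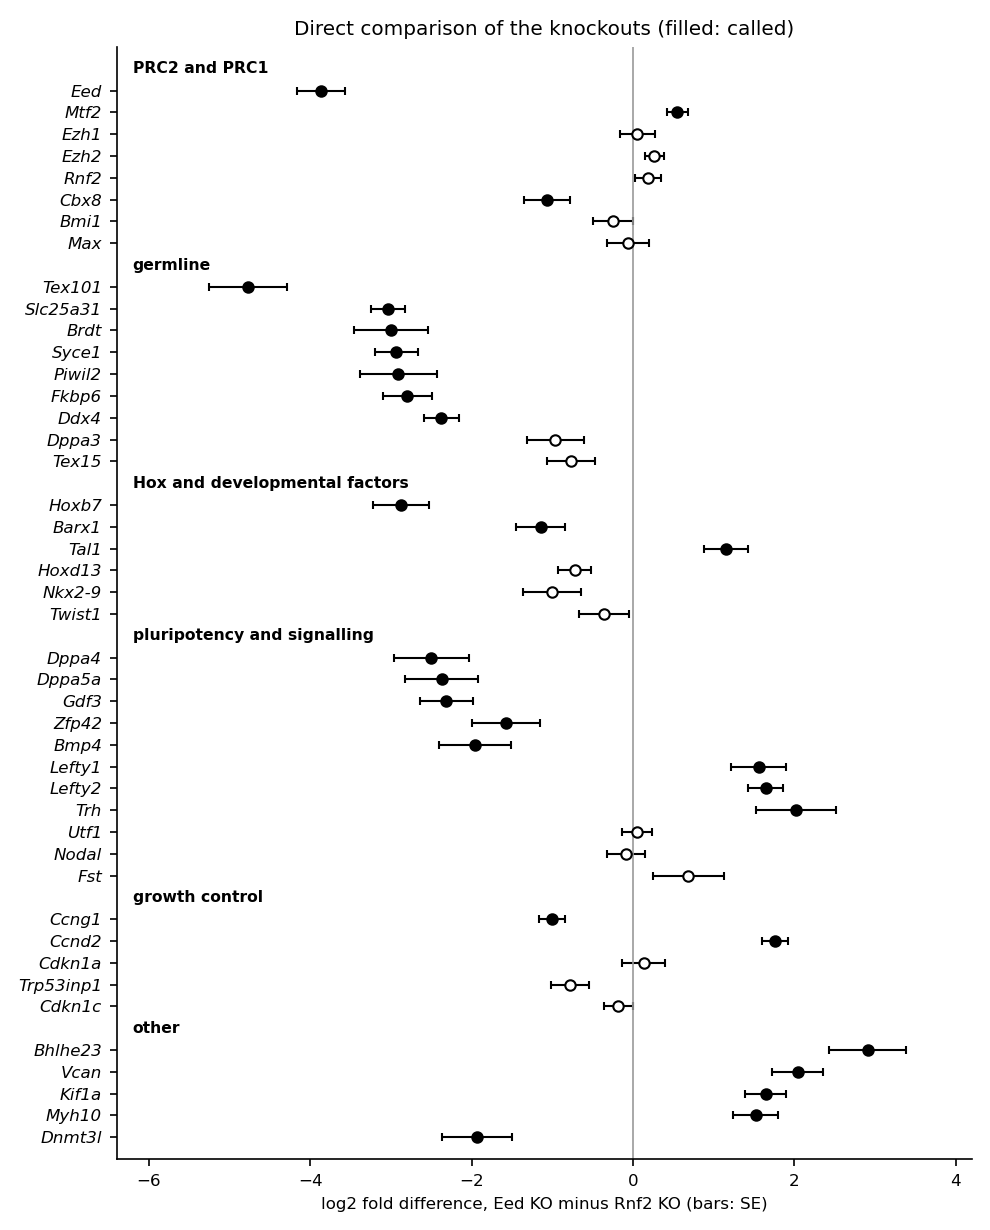
Log2 fold difference between the knockouts (Eed minus Rnf2) with its SE for 44 genes grouped by role, filled where the adjusted p was under 0.05. The 7 called germline genes drawn lie left of 0 between -2.37 and -4.77, whereas Hoxd13, Utf1 and Nodal have open symbols.

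Of 9 tested PRC2 genes, 1 was higher and 5 lower than the wild type in Eed, the targeted gene among them, and 1 was higher and 2 lower in Rnf2. The share called over all genes tested was 37.4% in Eed and 31.2% in Rnf2. Ezh1, the enzyme of non-dividing cells, rose by 0.74 ± 0.23 in Eed and 0.77 ± 0.22 in Rnf2 on the log2 scale, and Ezh2, the enzyme of dividing cells, fell by 0.34 ± 0.13 and 0.53 ± 0.15. Mtf2, an accessory subunit that guides PRC2 to CpG islands, was 76.8, 114 and 152 CPM in Eed, 61.9, 77.2 and 85.6 CPM in Rnf2 and 83.1, 133 and 174 CPM in the wild type. It was the only tested PRC2 gene called higher in Eed than in Rnf2 (log2 difference 0.55 ± 0.13, adjusted p = 0.021), where 1.62% of all genes tested were. The call was lost in 6 of 24 alternatives, among them those without Rnf2 embryo 3 or 8. Jarid2 and Aebp2 were called lower in Eed than in the wild type, by 0.45 ± 0.15 and 0.61 ± 0.15. In Rnf2 they did not pass the test, and neither differed between the knockouts (adjusted p = 0.915 and 0.602).

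Of the tested PRC1 genes, 6 of 17 were higher and 3 lower than the wild type in Eed, and 6 of 18 were higher and 2 lower in Rnf2, with Rnf2 itself among the lower genes in both. These counts too stand beside 37.4% and 31.2% of all genes tested. Bmi1, a subunit of canonical PRC1, was 8.85, 13.1 and 16.2 CPM in Eed, 6.49, 14.2 and 22.4 CPM in Rnf2 and 1.61, 3.27 and 5.48 CPM in the wild type, with a direct log2 difference of -0.25 ± 0.25 (adjusted p = 0.623). Max, the partner of MYC and of MGA, was 14.1, 26.2 and 57.4 CPM in Eed, 21.6, 26.7 and 51.1 CPM in Rnf2 and 3.81, 7.99 and 11.9 CPM in the wild type (direct difference -0.06 ± 0.26, adjusted p = 0.928). Pcgf2 and Pcgf5 rose in both as well. Pcgf6 and Mga, of the variant complex that acts on germline genes, were called lower in Eed, by 0.45 ± 0.10 and 0.52 ± 0.19 on the log2 scale, and their direct differences from Rnf2 were -0.17 ± 0.13 and -0.25 ± 0.18 (adjusted p = 0.489 and 0.466). Cbx8, a reader of the PRC2 mark, was the only tested PRC1 gene called between the knockouts, where 3.89% of all genes tested were called. It was 2.52, 5.88 and 9.32 CPM in Eed, 7.74, 11 and 16.6 CPM in Rnf2 and 0, 0.807 and 2.29 CPM in the wild type (log2 difference -1.07 ± 0.28, adjusted p = 0.0362), and the call was lost in 13 of 24 alternatives.

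Of 22 tested genes for DNA methylation and related repression, 1 was called between the knockouts, where 3.89% of all genes tested were called. Dnmt3l, the cofactor of the de novo DNA methyltransferases, was 5.55, 19.5 and 34.8 CPM in Eed, 23.9, 40.4 and 202 CPM in Rnf2 and 2.64, 4.64 and 24.4 CPM in the wild type (log2 difference -1.93 ± 0.43, adjusted p = 0.0142). It overlaps Aire, and the adjusted p was 0.0516 without Rnf2 embryo 6. Setdb1, a histone H3 methyltransferase, fell in both against the wild type, by 0.69 ± 0.14 in Eed and 0.80 ± 0.16 in Rnf2, and Ehmt2 and Gadd45a rose in both. In total, 4 of 21 tested genes were higher and 6 lower in Eed than in the wild type, and 5 of 21 were higher and 8 lower in Rnf2. The share called over all genes tested was 37.4% in Eed and 31.2% in Rnf2.

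Of 12 tested extraembryonic ectoderm markers, edgeR called 1 between the knockouts, Bmp4 as above, and DESeq2 called 2. Among all genes tested, edgeR called 3.89%. At an unadjusted p under 0.05, 0 were higher in Eed and 4 in Rnf2, and the median log2 difference was -0.53. The count ran from 0 to 4 over 24 alternatives. The 8 defining markers of that tissue summed to 25.7 to 106 CPM in Eed, 25.2 to 140 CPM in Rnf2 and 27.1 to 229 CPM in the wild type. Eomes, also a streak gene, made up most of the wild-type sum, with medians of 28.3 CPM in Eed, 27.8 CPM in Rnf2 and 97.4 CPM in the wild type. Each of the other markers had its highest median in Rnf2. The medians of Elf5, for example, were 0.571 CPM in Eed, 8.63 CPM in Rnf2 and 1.19 CPM in the wild type. Cdx2 and Pglyrp1 had no read in the wild type. Plet1, a trophoblast surface protein, was 14, 30.7 and 75.8 CPM in Eed, 13.5, 61 and 366 CPM in Rnf2 and 1.98, 4.95 and 15.2 CPM in the wild type, with a direct log2 difference of -1.92 ± 0.55 that just missed the threshold (adjusted p = 0.0547). Cldn4 rose in both knockouts. Among 11 tested visceral endoderm markers edgeR called 0 between the knockouts, with 1 higher in Eed and 2 in Rnf2 at an unadjusted p under 0.05, and DESeq2 called 1 in each direction. Cldn6, a tight junction protein, was raised in both, with means of 529.9 CPM in Eed, 421 CPM in Rnf2 and 178 CPM in the wild type, and every knockout library was above the highest wild-type library (257 CPM). The part of other tissue in these values was not tested.

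Imprinted genes are read from a single parental allele. Of 24 tested genes listed as maternally expressed, 10 were higher and 1 lower in Eed than in the wild type. In Rnf2, 12 of 24 were higher and 1 lower. Of the genes listed as paternally expressed, 3 of 17 were higher and 4 lower in Eed, and 5 of 18 were higher and 3 lower in Rnf2. These stand beside 37.4% and 31.2% of all genes tested that were called. Between the knockouts the share called was 3.89%. Of 25 tested genes listed as maternally expressed, edgeR called 1 higher in Eed, Calcr (log2 1.42 ± 0.38, adjusted p = 0.0377). It called 1 higher in Rnf2, Ddc (log2 -0.69 ± 0.19, adjusted p = 0.0469). These calls were lost in 12 of 23 and 16 of 24 alternatives. The parental side of a listed gene came from general knowledge, and that of Ddc is uncertain. Of 20 tested genes listed as paternally expressed edgeR called 0, with 2 higher in Eed and 5 in Rnf2 at an unadjusted p under 0.05. DESeq2 called 1, higher in Eed. Cdkn1c, a maternally expressed growth inhibitor, was 17.3, 31.8 and 40.8 CPM in Eed, 20.5, 32.1 and 35.7 CPM in Rnf2 and 3.63, 10.3 and 12.2 CPM in the wild type. The direct log2 difference was -0.18 ± 0.18 (adjusted p = 0.619). Sfmbt2, a Polycomb-related gene with noncanonical imprinting, was 23.6, 38.7 and 93.1 CPM in Eed, 31.7, 64.5 and 111 CPM in Rnf2 and 0.66, 5.14 and 11.4 CPM in the wild type, with a direct difference of -0.69 ± 0.29 (adjusted p = 0.18). H19, Dhcr7 and Plagl1 rose in both, and Asb4, Impact and Peg3 fell in both. Impact, for example, was 29.7 to 99.9 CPM in Eed, 29.4 to 75.3 CPM in Rnf2 and 121 to 156 CPM in the wild type.

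The maternal share of reads was tested for the same libraries. Because every mother was BDF1 and every father CAST, parent and strain cannot be told apart. The direct comparison called 7 of 10431 genes (0.0671%) at an adjusted p under 0.05, with 633 (6.07%) at an unadjusted p under 0.05. The reads of 3 were more maternal in Eed (0.0288% of the genes tested) and those of 4 less maternal (0.0383%). Relative to the wild type, 96 of 9040 genes (1.06%) were called in Eed, 0.343% more and 0.719% less maternal, and 63 of 9190 (0.686%) in Rnf2, 0.326% more and 0.359% less maternal. Of the 45 tested imprinted genes, edgeR called 0 between the knockouts, with 7 at an unadjusted p under 0.05. Of the 36 imprinted genes tested against the wild type, 4 were called in each knockout, with 10 in Eed and 11 in Rnf2 at an unadjusted p under 0.05, which 9.78% and 8.79% of all genes tested passed.

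Zdbf2, a paternally expressed gene, had lost its bias in both. Its maternal share was 40.8, 55.6 and 72.2% in Eed, 32.5, 47.9 and 66.7% in Rnf2 and 0, 1.3 and 5.77% in the wild type. The log2 ratio of maternal to paternal reads rose over the wild type by 5.73 ± 0.39 in Eed (adjusted p = 9.81e-11) and by 5.19 ± 0.50 in Rnf2 (adjusted p = 2.15e-05), and the direct difference was 0.61 ± 0.28 (adjusted p = 0.78). Maternal reads went from 0.649 ± 0.864 CPM in the wild type to 26.0 ± 9.94 CPM in Eed and 15.9 ± 5.16 CPM in Rnf2 (SD), and paternal reads from 30.5 ± 8.83 CPM to 19.14 ± 6.86 and 20.04 ± 11.4 CPM. The total level did not pass the test in either knockout (adjusted p = 0.183 and 0.622).

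Slc38a4, an amino acid transporter with noncanonical imprinting, was called in Eed and not in Rnf2. Its maternal share was 7.92, 12.4 and 35.4% in Eed, 0, 3.98 and 11.6% in Rnf2 and 0.274, 0.735 and 6.33% in the wild type. The log2 ratio rose by 3.76 ± 0.49 in Eed (adjusted p = 3.38e-05) and by 1.29 ± 0.90 in Rnf2 (adjusted p = 0.761). The direct difference of 2.48 ± 0.60 did not pass the test (adjusted p = 0.231), so the knockouts are not shown to differ. Peg3, a paternally expressed zinc finger gene, had 5.01% ± 5.20 maternal reads in Eed, 5.74% ± 4.66 in Rnf2 and 0.897% ± 0.849 in the wild type (SD), and was called in both against the wild type. Cd81, maternally biased in the wild type, fell from 67.6% ± 3.58 to 59.9% ± 2.12 in Eed and 57.7% ± 2.85 in Rnf2. The share over all autosomal reads was 56.8 to 57.8% in the Eed libraries and 57.3 to 58.5% in the Rnf2 libraries. Sfmbt2 had 28.5% ± 5.42 maternal reads in Eed, 16.2% ± 9.05 in Rnf2 and 58.2% ± 24.8 in the 5 wild-type libraries that reached 10 reads, and only the Rnf2 change was called (adjusted p = 0.0454). Its direct difference was 1.13 ± 0.32 (adjusted p = 0.416).

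The 7 genes called between the knockouts included Eed itself, whose few reads in the Eed libraries were 31.9% ± 13.4 maternal (SD, n = 8) against 63.7% ± 3.63 (SD, n = 6) in Rnf2. Igfbp3, a binding protein for insulin-like growth factors, had a maternal share of 5.39, 9.33 and 15.6% in Eed, 17.3, 25.5 and 34% in Rnf2 and 1.96, 10.5 and 19.4% in the wild type. The knockouts did not overlap (log2 ratio difference -1.66 ± 0.25, adjusted p = 0.00862). Hopx, a small homeodomain protein gene that overlaps its antisense RNA, was 38.5, 45.5 and 55.1% maternal in Eed, 56.9, 72.2 and 87% in Rnf2 and 42.6, 50 and 53.5% in the wild type (difference -1.57 ± 0.24, adjusted p = 0.00862). Trh was 67.1 to 73.3% maternal in Eed and 77.4 to 94.3% in Rnf2, with 69.4 to 78.8% in the wild type (difference -1.19 ± 0.21, adjusted p = 0.02). In these 3 genes the Eed libraries lay within or near the wild-type range.

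Cep128, a centrosome gene, went the other way. Its share was 33.3, 47.7 and 62.9% in Eed, 16.2, 22.6 and 30.9% in Rnf2 and 29, 41.5 and 49.2% in the wild type (difference 1.54 ± 0.30, adjusted p = 0.047), and the call was lost in 16 of 23 alternatives. Snrpd3, a splicing protein gene, had a small difference, 47.5 to 50.8% against 43 to 46.2% (0.28 ± 0.05, adjusted p = 0.0205). Tpmt, the seventh gene, was named after its values were seen and overlapped between the groups, with 58.8% ± 6.84 in Eed and 42.9% ± 6.6 in Rnf2 (SD, adjusted p = 0.0451). Each of the 6 others was lost under at least 1 alternative: Hopx in 1, Igfbp3 in 1, Trh in 3, Eed in 5, Snrpd3 in 8 and Cep128 as above.

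**Figure D5:**
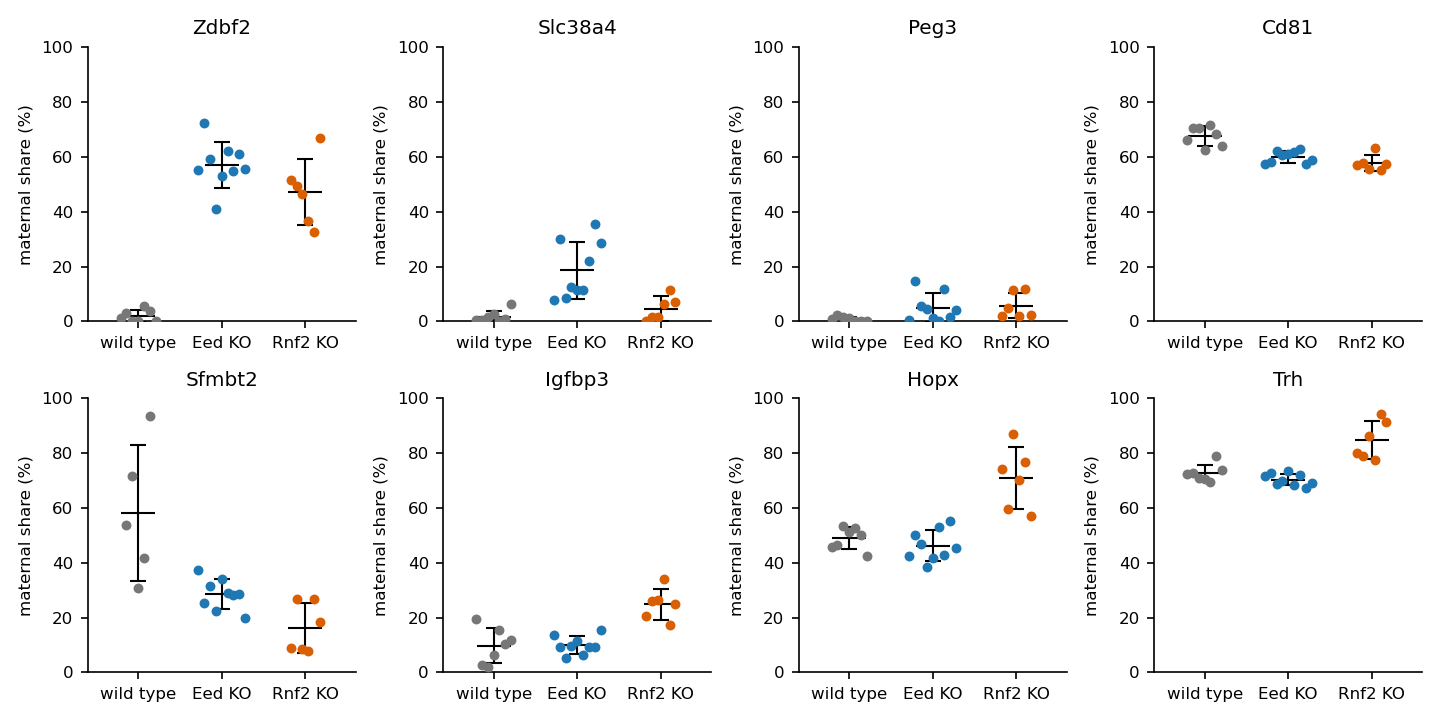
Maternal share of reads (%) for 8 genes in each library that had 10 reads or more, with 1 point per embryo and the group mean ± SD. Zdbf2 lies at 32.5% or above in all knockout libraries against at most 5.77% in the wild type, Slc38a4 spans 7.92 to 35.4% in Eed and 0 to 11.6% in Rnf2 with no difference called between them, and Igfbp3, Hopx and Trh are higher in the Rnf2 libraries.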

How the data were processed

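Per the submitters' processing notes, reads were handled with STAR 2.5.0 and HTSeq against mm10. The authors deposited, for each RefSeq gene and library, a count of reads over polymorphisms with no normalization, an allelic ratio (the CAST fraction minus 0.5, rounded), and an allelic score, which is a signed -log10 binomial p-value, per the file headers. Strand use was not given in the sources used here, so overlapping genes may share reads. Maternal and paternal counts were recovered as whole numbers that match ratio and score. This worked for 232068 of 232104 scored values (99.98%, within 0.0011 of the score). In 1358 values (9.36% of reads) the score was at its limit, and the rounded ratio set the counts.

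Counts were compared with edgeR 4.0.16 (quasi-likelihood, TMM scaling, filterByExpr with at least 10 reads), on the 2 groups compared. Allelic ratios were compared on maternal and paternal counts with a term for each library, keeping genes for which 3 or more libraries in both groups had 10 reads or more. Tests were two-sided, with Benjamini-Hochberg adjustment over all autosomal genes tested and a threshold of 0.05. A gene is said to be called, or to rise or fall, only when it passed. Scripts were tested on simulated data. The libraries come from separate embryos. CPM used the library total.

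14 gene lists were written from general knowledge, and the members and lists were chosen with earlier results of these data known. Named genes were the targeted genes, Zdbf2, called PRC2 and PRC1 genes, and the 10 largest changes in each direction without overlap at a mean of at least 5 CPM. Up to 4 called genes of each list, up to 4 called in both knockouts against the wild type but not between them, and the imprinted or non-overlapping allelic calls were added. Outside this rule, and named after their values were seen, are Sycp1, Zfp42, Tpmt and the other called germline members. Marker genes are also outside it. Alternatives were DESeq2 1.42.0, its size factors, limma 3.58.1 on log ratios, no filter, at least 50 reads, equal depth, all groups in one fit, sex, the embryo number as block, and leaving out libraries. A few results are not reported here.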

Additional observations from a re-analysis of the deposited data

Results flagged for a closer look

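Of 64 groups of libraries examined for named genes, 5 had a library far from the others of its group, where chance flags about 1 in 20. Rnf2 embryo 6 had the lowest Eed level of its group, 63.1 CPM, with the next at 136 CPM. The same embryo had no Ncapd3 read (0 CPM), with the next Rnf2 library at 0.994 CPM. Eed embryo 10 had the highest Myh10 level of its group, 34.3 CPM, with the next at 18.7 CPM. Rnf2 embryo 8 had the highest Piwil2 level, 21.6 CPM, with the next at 12.0 CPM. Rnf2 embryo 5 had the highest maternal share of Cd81, 63.2% (95% Wilson interval 61.3 to 65.0%, 2567 reads, counting error only), with the next at 57.8%. Piwil2 and Myh10 were called between the knockouts under every alternative, including those without these libraries.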

How the results depend on the processing

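No named gene that was called changed sign under an alternative, but the majority side of 2 of the 6 counts over all genes did. Of the genes called in Eed against the wild type, 48.7% were higher, and this was 52.4% with DESeq2, 52.7% with its size factors, 55.6% with the embryo number as block and 55.1% without wild-type embryo 8. Of the allelic calls in Rnf2 against the wild type, 47.6% were more maternal, and 64.5% with limma. Of 36 named genes called between the knockouts, 19 were called under every alternative, among them Tex101, Slc25a31, Ddx4, Syce1, Fkbp6, Piwil2, Brdt, Hoxb7, Gdf3, Dppa4, Ccnd2, Ccng1, Bhlhe23 and Vcan. All 6 named allelic calls between the knockouts were lost under at least 1. Against the wild type, 57 of 77 named expression calls in Eed and 51 of 73 in Rnf2 held throughout. Zdbf2 did so in both allelic comparisons. The count of 407 genes between the knockouts was 749 with DESeq2, 670 without a filter (27.0% of them higher in Eed against 41.5%), 712 with sex as covariate and 140 without Rnf2 embryos 3 and 5. The latter 2 embryos were left out as an alternative chosen after seeing the data, as were the 4 libraries with Elf5 above 10 CPM. Leaving out 1 library gave 228 to 659. The allelic count of 7 was 12 with limma, 3 at equal depth, 4 without Rnf2 embryos 3 and 5 and 4 without the Elf5 libraries, and 3 to 9 with 1 library left out. Against the wild type, leaving out 1 library gave 3056 to 3969 genes in Eed and 2547 to 3827 in Rnf2. The allelic counts were 25 (limma) and 75 to 122 in Eed. In Rnf2 they were 31 (limma), 99 with all groups in one fit, 39 without Rnf2 embryos 3 and 5 and 37 to 69. The last range fell to 41, 39, 39 and 37 without wild-type embryo 1, 3, 4 or 7, and the direct allelic count to 3 and 4 without Rnf2 embryo 3 or 5. The cause of these changes was not tested.

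The labels number embryos within each group, and the numbers were not taken to pair the libraries, which would have needed every pair to correlate above 0.1. Over 6 shared numbers, the correlation of deviations between Eed and Rnf2 ran from -0.13 to 0.22 and was above 0.1 in 5. With the number as replicate block, the counts were 641 (expression) and 4 (allelic) between the knockouts, 1886 and 43 for Eed, and 1115 and 21 for Rnf2 against the wild type. Over those pairs, 4 of 6 Eed libraries correlated best with their own number, which is a hint from the data and not from the design. Depth limits the Eed and wild-type libraries, which held fewer reads than any Rnf2 library.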

Other observations

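Psmb8, Ifitm3, Nmi, Psme2, Psme1 and Gbp7, single genes chosen after their values were seen to be higher in Rnf2 than in Eed, are given as values. Psmb8, a catalytic subunit of the immunoproteasome, was 72.9, 96.4 and 168 CPM in Eed (lowest, median and highest), 205, 268 and 376 CPM in Rnf2 and 3.79, 6.17 and 22.2 CPM in the wild type. The 3 groups did not overlap, and the log2 difference between the knockouts was -1.45 ± 0.18 (edgeR, adjusted p = 7.04e-05). Ifitm3, an interferon-induced membrane protein also found in germ cells, was 516, 663 and 811 CPM in Eed, 1035.5, 1514.5 and 3005 CPM in Rnf2 and 124, 166 and 243 CPM in the wild type (log2 difference -1.44 ± 0.18, adjusted p = 6.23e-05). Nmi, Psme2, Psme1 and Gbp7 had log2 differences of -2.04 ± 0.26, -1.41 ± 0.17, -0.90 ± 0.15 and -1.91 ± 0.31. Related genes did not share this pattern. B2m, the light chain of class I molecules, had a direct difference of -0.06 ± 0.18 (adjusted p = 0.893) and rose in both knockouts against the wild type, and Ifitm2 (adjusted p = 0.455) and Ifitm1 (adjusted p = 0.118) were not called between the knockouts. No test of these genes as a group was made.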
